A study of Mus musculus with 10 samples.

Results

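The aminoacyl-tRNA synthetases were followed through the RNA of mouse regulatory T cells (Tregs), the Foxp3-expressing CD4 T cells that hold immune responses in check. The genes were taken by symbol from a named list of 34, of which 19 encode enzymes of the cytosol and 15 encode enzymes of mitochondria. All 34 were found among the 23992 gene symbols measured, and all 34 had enough reads to be tested in both comparisons. Each symbol opens with the one-letter code of the amino acid, so that Iars is the isoleucyl enzyme and Iars2 its mitochondrial counterpart. RNA was sequenced from C57BL/6J mice in 10 libraries. In 4 of them, wild-type nTregs from spleen had been cultured for 24 h with anti-CD3 and anti-CD28 antibodies, which stimulate the T cell receptor, either alone (TCR, 2 libraries) or with the epithelial cytokine TSLP (TCR + TSLP, 2 libraries). The other 6 held Tregs from allergic lung tissue of OVA-immunized mice. These were Foxp3YFP-Cre mice, labelled wild-type (control, 3 libraries), and Crlf2fl/fl Foxp3YFP-Cre mice, labelled a conditional knock-out of the TSLP receptor gene Crlf2 (Crlf2-deleted, 3 libraries). Both lung groups carry Cre recombinase driven by Foxp3, so that deletion is directed to cells that express Foxp3. No age and no statement on pooling of animals was found in the labels. Nothing there ties a replicate to its own animal or culture, so that the p-values cover the spread among these libraries alone, and part or all of that spread may be technical.

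Each synthetase joins an amino acid to its tRNAs, which then carry it to the ribosome. The enzymes fall into class I and class II, which differ in the fold of the catalytic domain. Several cytosolic enzymes are held in a multisynthetase complex by the scaffold proteins Aimp1, Aimp2 and Eef1e1. Mitochondria use a largely separate set encoded in the nucleus, while Gars and Kars each serve both compartments and Eprs joins the glutamyl and prolyl enzymes in a single chain. When charged tRNA runs short, the kinase Gcn2 (gene Eif2ak4) phosphorylates eIF2 and the transcription factor ATF4 is made. ATF4 raises cytosolic synthetases, amino acid transporters and enzymes of amino acid synthesis. T cells that leave rest enlarge and make more of the machinery of translation.

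The cytosolic and mitochondrial genes differed at their promoters in the letters of the amino acid response element, to which dimers of C/EBP and ATF proteins bind. The motif TGATGNAA was searched on both strands in windows of 300 bases, 250 before and 50 after each transcription start in RefSeq (build GRCm38.p6). Windows were found for 25 of the 34 genes. The genes with none were Cars, Hars, Lars, Nars, Rars, Vars, Wars, Hars2 and Pars2. The motif was present in 5 of the 12 cytosolic genes with a window (41.7%) and in 0 of the 13 mitochondrial genes, against 1219 of all 27025 genes with a window (4.51%). The longer form TGATGNAAT, which contains the first motif, was tried first and was present in 3 of the 12, 0 of the 13 and 1.08% of all genes. These counts describe letters in a window and say nothing on binding. The stretches that hold the motif are shown 5′ to 3′ on the strand of the gene, with the motif (or its reverse complement) in capitals, because they are the sequence feature that the 5 genes share.
Aars, chr8:111033690-111033777, plus strand, motif 112 bases before the start: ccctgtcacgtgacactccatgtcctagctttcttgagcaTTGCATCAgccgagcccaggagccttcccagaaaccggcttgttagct
Aars, chr8:111033842-111033867, plus strand, just past the start: cgggtcactTTTCATCAgagcgctct
Gars, chr6:55037931-55038000, plus strand, 30 bases before the start: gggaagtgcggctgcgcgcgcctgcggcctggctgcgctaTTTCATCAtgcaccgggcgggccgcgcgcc
Iars, chr13:49682128-49682153, plus strand, just past the start: ctgtcagtaTTGCATCAcctccagac
Tars, chr15:11399659-11399713, minus strand, 15 bases before the start: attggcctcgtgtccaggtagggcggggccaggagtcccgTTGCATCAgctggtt
Yars, chr4:129189897-129189922, plus strand, just past the start: gagctcagcTGATGCAAcccgacggg
All but the Yars stretch hold the motif on the strand opposite to the gene. Of 25 listed targets of ATF4 other than synthetases that had a window, 9 held it (36%).

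The reads assigned to genes were 27237313 to 51671901 in the spleen libraries and 1439675 to 18349039 in the lung libraries, the fewest in control library 2. Levels are given as normalised reads (CPM, reads scaled to a common library total, after correction for library composition) or, between genes, as RPKM (reads scaled to transcript length and to sequencing depth). Crlf2 itself had 92.8, 146 and 105 normalised reads in control lung against 9.06, 6.73 and 3.55 after deletion, with no overlap. Treg markers (Foxp3, Il2ra, Ctla4, Ikzf2, Tnfrsf18) summed to 1754 and 1807 CPM in the TCR libraries, 2521 and 2655 with TSLP, 2258, 2376 and 1028 in control lung and 2371 to 2534 in Crlf2-deleted lung, and all 5 were detected in every group. General T cell markers (Cd3e, Cd3g, Cd3d and Cd4) summed to 1722 and 1633 CPM with TCR alone, 1298 and 1302 with TSLP, 1681, 1973 and 1124 in control lung and 2359 to 2523 in Crlf2-deleted lung. The T cell sums did not overlap between the groups of either comparison, nor did the Treg sums in spleen, and their part in the results was not tested. Both sums were lowest in lung in the third control library. That library stood apart, with erythroid markers at 72712 CPM (858 to 3442 in the other 5 lung libraries) and macrophage and monocyte markers at 3542 (229 to 920 in the others). The first control library had the highest sum of lung epithelial markers, 74037 CPM against 2359 to 21103 in the others. In spleen the epithelial list summed to 12.3 to 13.7 CPM, with Sftpc, Sftpa1 and Scgb1a1 at 0. The macrophage and monocyte list summed to 1.78 to 1.97 CPM there, with Mrc1 and Marco at 0. Markers of B and plasma cells summed to 70.7 to 93.3 CPM in spleen and those of CD8 T and NK cells to 26.3 to 37.6. Those of endothelium and stroma summed to 30.5 to 39.4. In all these bulk samples, fewer cells of a type and less RNA per cell cannot be told apart.

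Per transcript length, the median cytosolic enzyme was more abundant than the median mitochondrial one in every group. In summed RPKM this held in every group only without Lars2. In TCR cultures their mean RPKM ran from 8.49 (Iars) to 56.5 (Kars), with a median of 21.02. The mitochondrial enzymes other than Lars2 ran from 0.604 (Nars2) to 20.8 (Tars2), with a median of 4.08. With TSLP the medians were 35.3 and 3.97. In control lung Tregs they were 4.78 and 1.099, and in Crlf2-deleted lung Tregs 6.39 and 1.605. The total by which the deposited RPKM was scaled was 2.65 and 2.34 times the gene reads with TCR alone and 2.249 and 2.27 times with TSLP. It was 4.51 to 6.69 times in control lung and 4.24 to 5.01 times in Crlf2-deleted lung. RPKM levels are thus lowered more in lung than in spleen, and more with TCR alone than with TSLP. On log2(RPKM + 1) the median change of all genes was 0.20 with TSLP and 0.21 with Crlf2 deletion, and on log2(RPKM + 0.1) it was 0.33 and 0.37. The size of this shift thus depends on the constant added. The RPKM medians above carry such a shift and have no constant added. Kars, the lysyl enzyme, was the highest cytosolic gene in 3 of the 4 groups, with 56.5 ± 9.71 in TCR, 65.7 ± 1.06 in TCR + TSLP and 10.8 ± 1.36 RPKM in control lung (SD). In Crlf2-deleted lung it stood at 11.7 ± 2.08 RPKM and was exceeded by Farsa, the alpha subunit of the phenylalanyl enzyme, at 16.2 ± 1.02. In TCR cultures Kars was followed by Gars at 47.5, Vars at 36.7 and Sars at 36.2 RPKM. Vars and Sars overlapped, as did Kars and Gars, whereas both Gars libraries (43.3 and 51.8) lay above both Vars libraries (35.6 and 37.8).

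**Figure D1:**
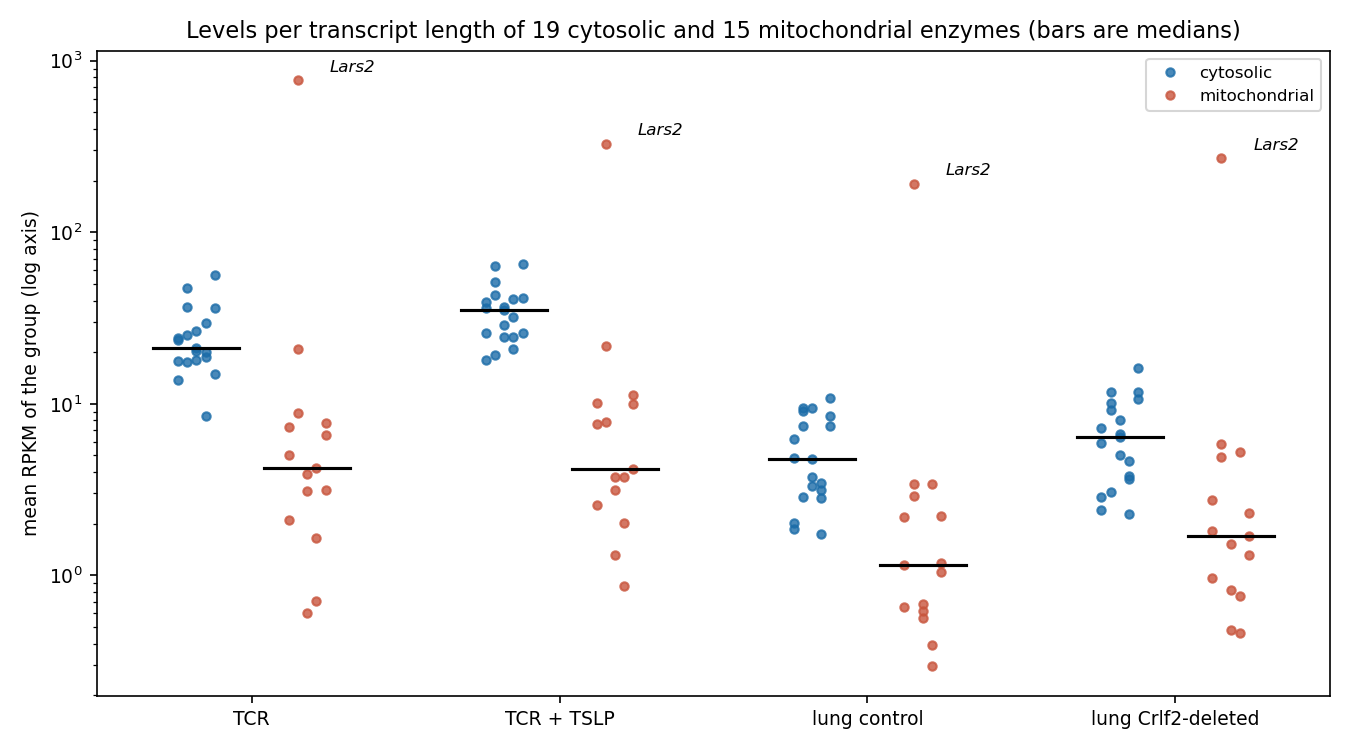
Mean RPKM per group (log axis) for each of the 19 cytosolic (blue) and 15 mitochondrial (red) enzymes in the 4 groups, with bars at the medians of all genes of a set. The cytosolic median lies above the mitochondrial one in every group, and Lars2 lies above all other enzymes.

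The order of the enzymes was largely kept between tissues. Over the 33 genes other than Lars2, mean RPKM in TCR cultures and in control lung Tregs had a Spearman rho of 0.87 and a Pearson r of 0.82, a description across genes that share transcript lengths and annotation. Culture, tissue, genotype and depth differ at once between the sets, so no test was made between them. Wars, the tryptophanyl enzyme and a known interferon-gamma response gene, ranked 11 of 34 in TCR cultures and 4 in control lung. Rars, the arginyl enzyme, ranked 6 and 20, with 29.4 ± 3.95 RPKM in TCR cultures and 2.82 ± 0.934 in control lung, levels that carry the unequal scaling given above. Farsa ranked 19 in TCR cultures, 8 in control lung and 2 in Crlf2-deleted lung.

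The row named Lars2, the mitochondrial leucyl enzyme, exceeded every other synthetase. It had 972 and 571 RPKM in the TCR libraries, 326 and 331 with TSLP, 194.3, 154 and 228 in control lung and 230, 309 and 273 in Crlf2-deleted lung. This row alone made up 78.3% to 93.3% of the summed RPKM of the mitochondrial enzymes. Its transcript of 3894 bases (chromosome 9, 123366927 to 123462666, plus strand, GENCODE on GRCm38) shares 97 bases with the noncoding RNA gene AA474408 at 94.8% identity, from base 3233 to 3329. It shares 72 bases with the noncoding RNA gene Gm15564 at 98.6%, from base 3278 to 3349. Neither of these genes has a row in the files used here. Whether the reads in the row come from Lars2 mRNA was not tested. Summaries of the mitochondrial set are therefore given with and without it.

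In spleen cultures the question was what TSLP changes on top of stimulation through the T cell receptor. With TSLP, 7 of the 19 cytosolic enzymes rose and 0 fell, while 2 of the 15 mitochondrial enzymes rose and 6 fell. The test was edgeR's quasi-likelihood test, with p-values adjusted by Benjamini-Hochberg over all genes and a threshold of 0.05. TSLP moved a large part of the transcriptome, and 22.7% of the 13214 genes tested rose and 23.1% fell. The share of cytosolic enzymes that rose was 36.8% and that of mitochondrial enzymes that fell 40%. The median log2 fold change was 0.10 over the cytosolic enzymes, -0.08 over the mitochondrial ones (also -0.08 without Lars2) and 0.01 over all genes. The sets thus lay on either side of the middle of all genes, by small amounts.

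**Figure D2:**
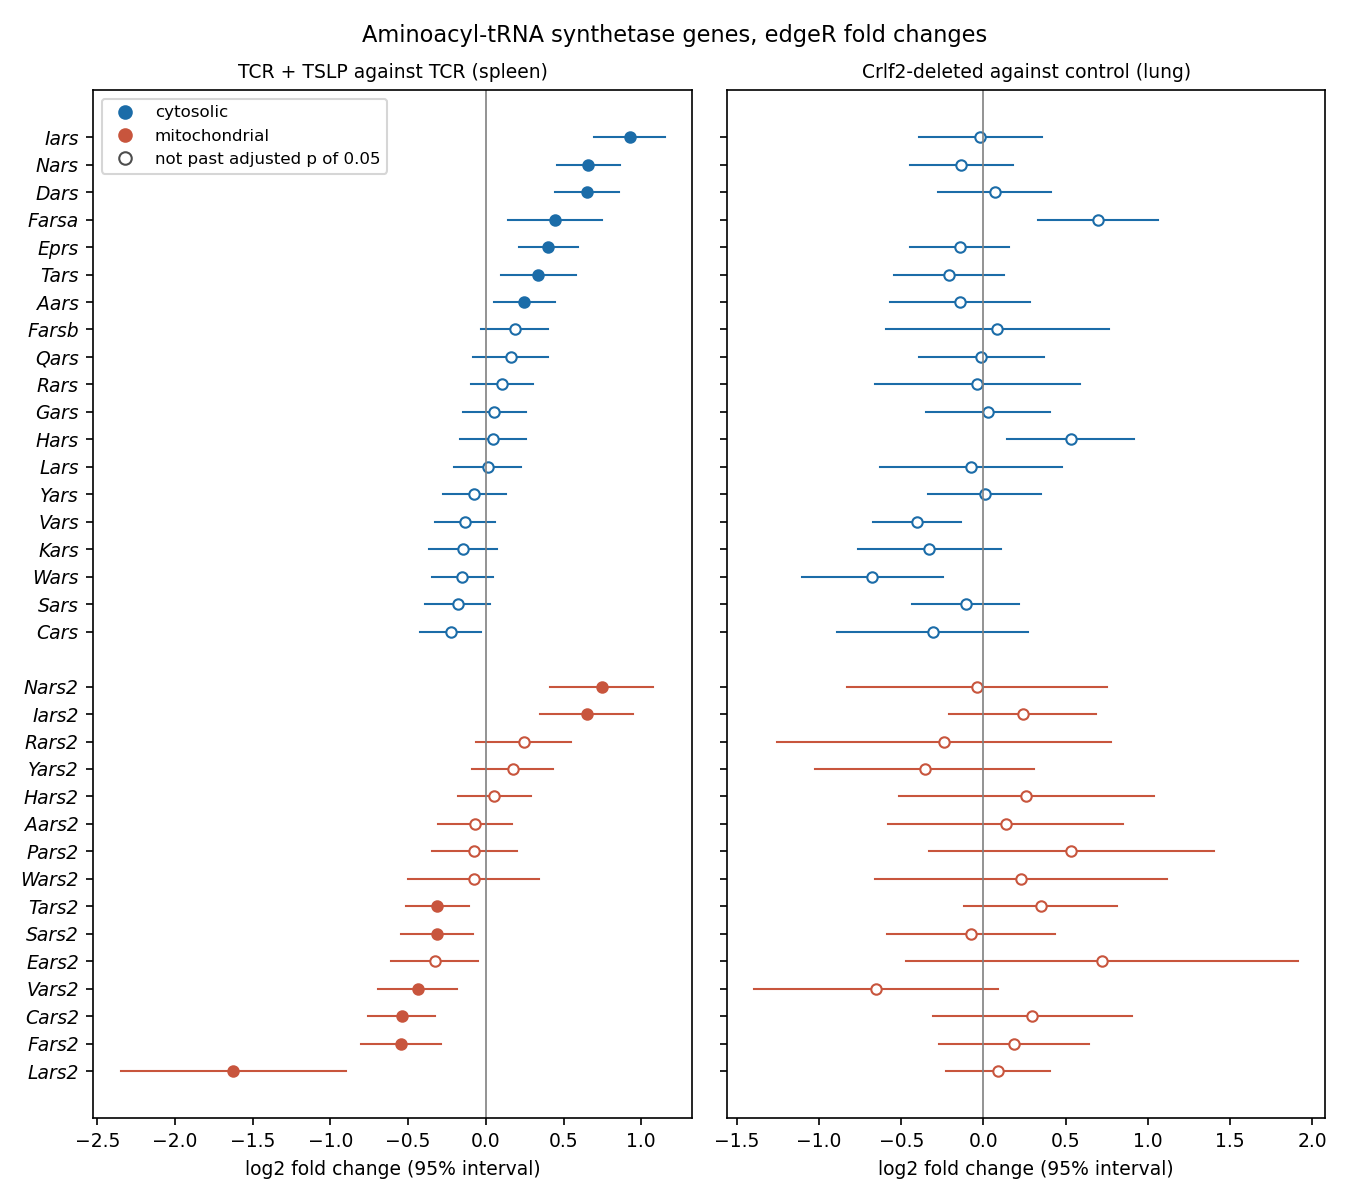
Log2 fold change with its 95% interval from edgeR for each of the 34 synthetase genes, with TSLP against TCR alone in spleen cultures (left) and Crlf2-deleted against control in lung (right), where filled points passed an adjusted p of 0.05. On the left 7 cytosolic (blue) genes lie above 0 as filled points and none below, 2 mitochondrial (red) genes lie above and 6 below, and on the right no point is filled.

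Iars had the largest rise. The TCR libraries had 94.0 and 106 normalised reads, and those with TSLP 183 and 197.4. Both TSLP libraries lay well above both TCR libraries, with means of 100.1 ± 8.64 and 190.1 ± 10.3 (SD, n = 2 each). The log2 fold change was 0.93 with an SE of 0.10 (edgeR, adjusted p = 0.000353). Iars lies on chromosome 13 from 49682100 to 49734267 (plus strand, GENCODE on GRCm38) and is among the 5 genes with the motif shown above. Part of its transcript, 8.61% of its stretches of 50 bases, is identical to the gene Gm4849, and reads there cannot be divided between them.

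Nars and Dars, the asparaginyl and aspartyl enzymes, rose by similar amounts. Nars had 173 and 187 normalised reads in the TCR libraries and 288 and 281 with TSLP, a log2 fold change of 0.66 with an SE of 0.09 (edgeR, adjusted p = 0.000829). Dars had 103 and 113 without and 174 and 166 with TSLP, a log2 fold change of 0.65 with an SE of 0.09 (edgeR, adjusted p = 0.00101). For both genes the libraries of a group lay close together and the groups were far apart. Dars and Iars are parts of the multisynthetase complex, and Nars is not.

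The 4 other cytosolic genes that rose did so by less. Farsa went from 62.9 and 82.5 normalised reads to 103 and 95.2 with TSLP, a log2 fold change of 0.44 with an SE of 0.13 (edgeR, adjusted p = 0.0258). Eprs, the fused glutamyl and prolyl enzyme, went from 239 and 252 to 323 and 326, a log2 fold change of 0.40 with an SE of 0.08 (edgeR, adjusted p = 0.00584). The threonyl enzyme Tars had 156 and 186 normalised reads without and 222 and 210.1 with TSLP (log2 0.34, adjusted p = 0.0297). In these 3 genes the groups did not overlap, and the TCR libraries of Farsa and Tars were the most spread. The alanyl enzyme Aars had 229 and 240 without and 283 and 274 with TSLP (log2 0.25, adjusted p = 0.0417), the smallest rise that passed. Of the exon bases of an annotated Aars transcript, 23.1% overlap Exosc6 on the same strand, and Exosc6 fell (log2 -0.69, adjusted p = 0.00151, edgeR). That Aars transcript has 5750 bases against 3715 in the counted row, and whether the row holds the overlap was not tested.

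**Figure D3:**
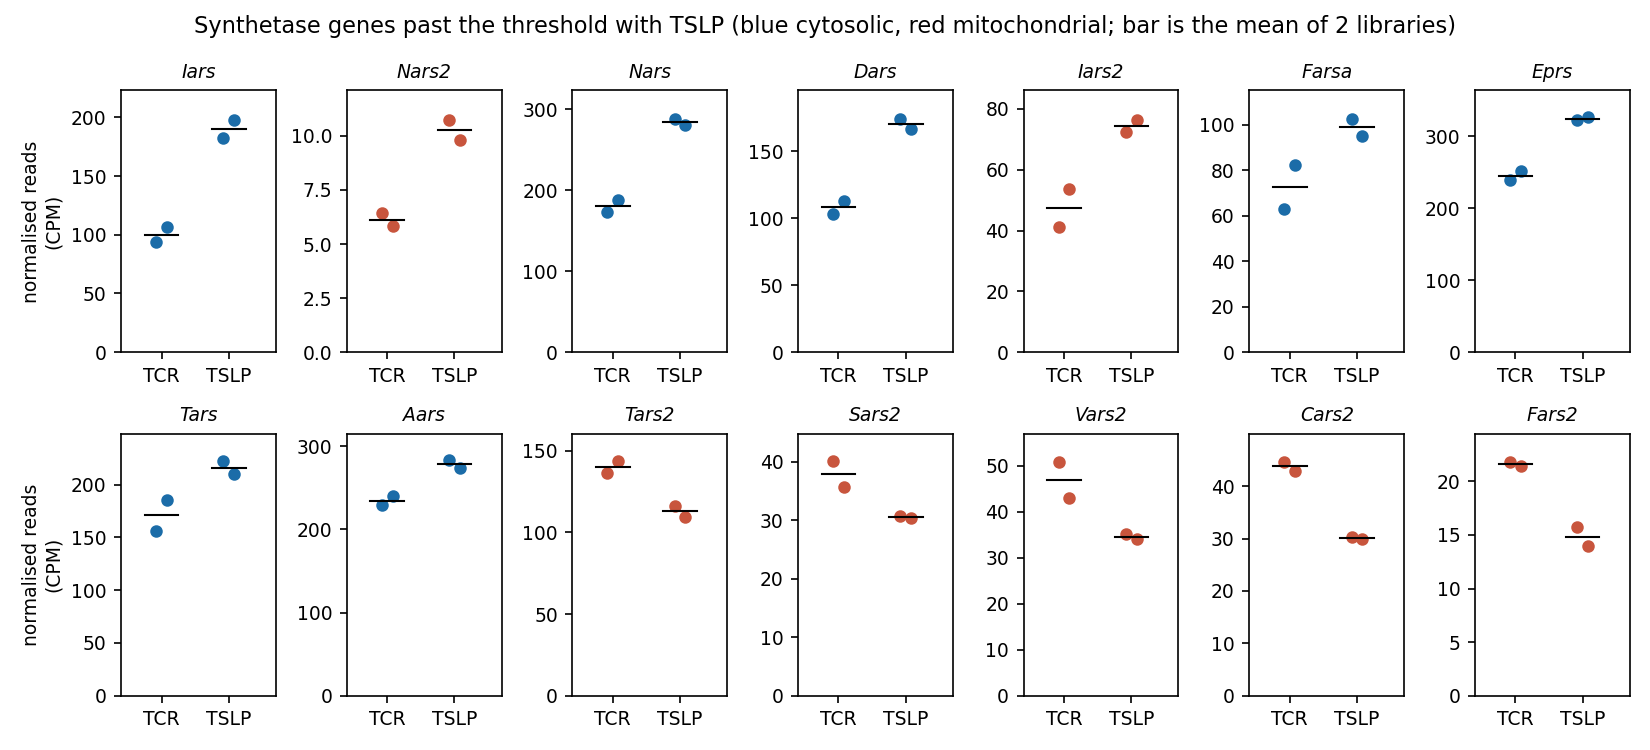
Normalised reads (CPM) in each library for the 14 synthetase genes other than Lars2 that passed the threshold with TSLP, cytosolic in blue and mitochondrial in red, with a bar at the mean of each pair of libraries. In each of the 14 panels both TSLP libraries lie on the same side of both TCR libraries.

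The other 12 cytosolic enzymes did not pass. Their log2 fold changes ran from -0.23 (Cars) to 0.19 (Farsb). Cars, the cysteinyl enzyme, had 154 and 149 normalised reads without and 132 and 127 with TSLP (log2 -0.23, interval -0.42 to -0.03, adjusted p = 0.0582), and its groups did not overlap. Farsb, the beta subunit that pairs with Farsa, had 102 and 114 without and 122 and 124 with TSLP (log2 0.19, interval -0.03 to 0.40, adjusted p = 0.136). Kars, the most abundant cytosolic enzyme, had 324 and 368 without and 318 and 307 with TSLP (log2 -0.15, interval -0.37 to 0.07). Gars had 295 and 315 without and 328 and 307 with TSLP, and these groups overlapped (log2 0.06, interval -0.15 to 0.26). For Hars, Lars, Gars and Yars the groups overlapped. In the 8 remaining genes (Cars, Farsb, Kars, Qars, Rars, Sars, Vars and Wars) they did not, 3 higher and 5 lower with TSLP. Over all 19 cytosolic enzymes, the called ones included, groups did not overlap in 10 that were higher and 5 that were lower. Among all genes tested, called ones included, 38.1% had groups that did not overlap and were higher and 37.3% lower.

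The counts in this paragraph are read against 22.7% of all genes that rose and 23.1% that fell, and the enzyme classes were assigned after the values were seen. By structure, 5 of the 10 cytosolic enzymes of class II rose (Nars, Dars, Farsa, Tars and Aars), with a median log2 fold change of 0.22. Of the 8 of class I, 1 rose (Iars), with a median of -0.03, and Eprs, which holds both classes, rose. Of the 7 listed enzymes of the multisynthetase complex 3 rose (Dars, Eprs and Iars; median 0.16), and of the 12 that stand outside it 4 rose (median 0.05). All 3 scaffold genes of the complex passed the test. Eef1e1 rose from 34.7 and 48.2 to 72.2 and 67.6 normalised reads (log2 0.75, adjusted p = 0.00472). Aimp1 fell from 103 and 126 to 88.8 and 84.7 (log2 -0.40, adjusted p = 0.0199), and Aimp2 fell from 73.2 and 77.4 to 62.4 in both (log2 -0.27, adjusted p = 0.0383). The falls of Aimp1 and Aimp2 were lost without either TCR + TSLP library, and with a trend on transcript length removed the values turned to 0.12 and 0.21. With length and GC trends removed Aimp2 passed as a rise (log2 0.29, adjusted p = 0.0157, edgeR). Of the 5 cytosolic genes with the promoter motif 3 rose (Aars, Iars and Tars; median 0.25 over the 5), and of the 7 genes with a window and no motif 3 rose (Dars, Eprs and Farsa; median 0.19).

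Of the mitochondrial enzymes, 2 rose. Nars2 had 6.43 and 5.83 normalised reads in the TCR libraries and 10.8 and 9.82 with TSLP, from 146 to 554 reads per library. Its log2 fold change was 0.74 with an SE of 0.15 (edgeR, adjusted p = 0.00444), beside 0.66 for its cytosolic counterpart Nars. Iars2 had 41.2 and 53.7 normalised reads without and 72.3 and 76.5 with TSLP, a log2 fold change of 0.65 with an SE of 0.13 (edgeR, adjusted p = 0.00523). Its counterpart Iars had 0.93, so that the asparaginyl and isoleucyl enzymes rose in both compartments. An annotated transcript of Iars2 overlaps Rab3gap2 on the opposite strand over 37.2% of its exon bases, and Rab3gap2 rose by a log2 of 0.32 (adjusted p = 0.0237). The Iars2 transcript has 5471 bases against 3540 in the counted row, and whether the row holds the overlap was not tested. The strand rule of the deposited counting is also not known here, so reads in any shared bases cannot be divided.

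Apart from Lars2, the 5 mitochondrial enzymes that fell did so by a log2 of 0.31 to 0.55. Fars2, the phenylalanyl enzyme, went from 21.8 and 21.5 normalised reads to 15.8 and 13.9 with TSLP (log2 -0.55, SE 0.11, adjusted p = 0.00559, edgeR). Cars2 went from 44.7 and 42.9 to 30.3 and 29.9 (log2 -0.54, SE 0.09, adjusted p = 0.00261, edgeR). Both groups of each gene were tight and did not overlap. With length and GC trends removed both values were -0.23, and Fars2 no longer passed (adjusted p = 0.0908, edgeR) while Cars2 did (adjusted p = 0.0432, edgeR). Over 22.2% of its exon bases Cars2 overlaps a gene on the opposite strand, listed as Carkd in the files, which fell by a log2 of 0.67 (adjusted p = 0.00116). Vars2 fell from 50.9 and 43.0 to 35.2 and 34.1 normalised reads (log2 -0.44, adjusted p = 0.013). Tars2, the most abundant mitochondrial enzyme after Lars2, fell from 136 and 144 to 116 and 110 (log2 -0.31, adjusted p = 0.0209). Sars2 fell from 40.2 and 35.7 to 30.7 and 30.4 (log2 -0.31, adjusted p = 0.0355). On log2(RPKM + 1) the values of Fars2, Cars2 and Vars2 were -0.14, -0.15 and -0.05 and those of Sars2 and Tars2 0.05 and 0.06. None of these passed by limma. The median of all genes lay at 0.20 on that scale and at 0.33 on log2(RPKM + 0.1). Sars2 was at 0.08 once trends on length and GC content were removed. The remaining 7 ran from -0.33 (Ears2, adjusted p = 0.0568) to 0.24 (Rars2) and did not pass. Among class I enzymes 1 rose and 3 fell of 8, and among class II enzymes 1 rose and 3 fell of 7, against 22.7% and 23.1% of all genes.

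The Lars2 row fell the most. It held 10770 and 5648 normalised reads in the TCR libraries and 2654 and 2664 with TSLP, a log2 fold change of -1.63 with an SE of 0.29 (edgeR, adjusted p = 0.00702). The TCR libraries differed from each other by more reads than the second of them differed from the TSLP libraries. As a share of all gene reads the row was 0.998% and 0.520% without and 0.285% and 0.291% with TSLP. In control lung it was 0.421%, 0.401% and 0.399%. The fold rests on a row whose source of reads was not tested.

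These counts depended on single libraries and on the scaling. Without TCR + TSLP library 1, 3 cytosolic enzymes and 1 mitochondrial enzyme rose and 3 mitochondrial ones fell, and without TCR + TSLP library 2 the 3 counts were 4, 2 and 2. The calls on Aars, Eprs, Tars, Sars2, Tars2 and Vars2 were lost without either of them, those on Farsa and Nars2 without library 1, and that on Fars2 without library 2. With length and GC trends removed the calls on Eprs (log2 0.18, adjusted p = 0.0813, edgeR) and Tars (log2 0.22, adjusted p = 0.0518, edgeR) were also lost. With any 1 spleen library left out, the log2 fold change ran from -0.26 to -0.19 for Cars and from -0.24 to -0.03 for Kars. For Sars it ran from -0.25 to -0.11 and for Wars from -0.18 to -0.10. Of all genes, fewer passed without a TCR + TSLP library and more passed without a TCR library. Counts of calls with a library left out are to be read beside that. Scaled by library totals alone, the median of all genes lay at 0.24 and 5059 genes rose against 2000 that fell, and 17 synthetases rose and 3 fell. Of all genes, 3514 rose and 2122 fell with the length trend removed, against 2999 and 3051 as first given. Dars, Iars, Nars and Iars2 passed in the same direction in all 18 alternatives, and Lars2 passed in 17 of them. Sars2 passed in 6 and Tars2 in 9.

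Paired by amino acid, 13 enzymes have both forms among the members. The cytosolic log2 fold change was the higher of the pair in 8 of 13, with a median difference of 0.28. Leaving aside leucine, which rests on Lars2, the widest differences were those of phenylalanine (Farsa 0.44, Fars2 -0.55, difference 0.99) and threonine (Tars 0.34, Tars2 -0.31, difference 0.65). For histidine, asparagine, tryptophan, arginine and tyrosine the mitochondrial form had the higher value, by at most 0.25. In RPKM, Farsa to Fars2 went from 2.99 and 3.98 in the TCR libraries to 6.75 and 7.08 with TSLP, and Tars to Tars2 from 1.09 and 1.23 to 1.82 in both. Both ratios were higher in each TSLP library than in each TCR library. Nars to Nars2 was 38.1 and 45.6 without and 37.9 and 40.6 with TSLP, which overlap.

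The summed RPKM of the cytosolic enzymes over that of the mitochondrial enzymes without Lars2 was 6.22 and 6.35 in the TCR libraries and 7.52 and 7.44 with TSLP. It was 4.93, 5.55 and 4.55 in control lung and 3.82, 4.62 and 4.39 in Crlf2-deleted lung. The spleen groups were each narrow and apart from each other, whereas the lung groups overlapped. With Lars2 included the means were 0.606 ± 0.272, 1.61 ± 0.0347, 0.492 ± 0.0710 and 0.440 ± 0.0665 in the same order, and the Lars2 row then set the value. Of all gene reads, the cytosolic enzymes together took 0.332% and 0.352% with TCR alone and 0.441% and 0.437% with TSLP. In the lung libraries they took 0.141% to 0.190%. The mitochondrial enzymes other than Lars2 took 0.0445% and 0.0463% with TCR alone and 0.04995% and 0.04997% with TSLP. Such shares are scaled by library totals alone, where the median log2 fold change of all genes with TSLP was 0.24. The rises in both shares carry that shift.

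**Figure D4:**
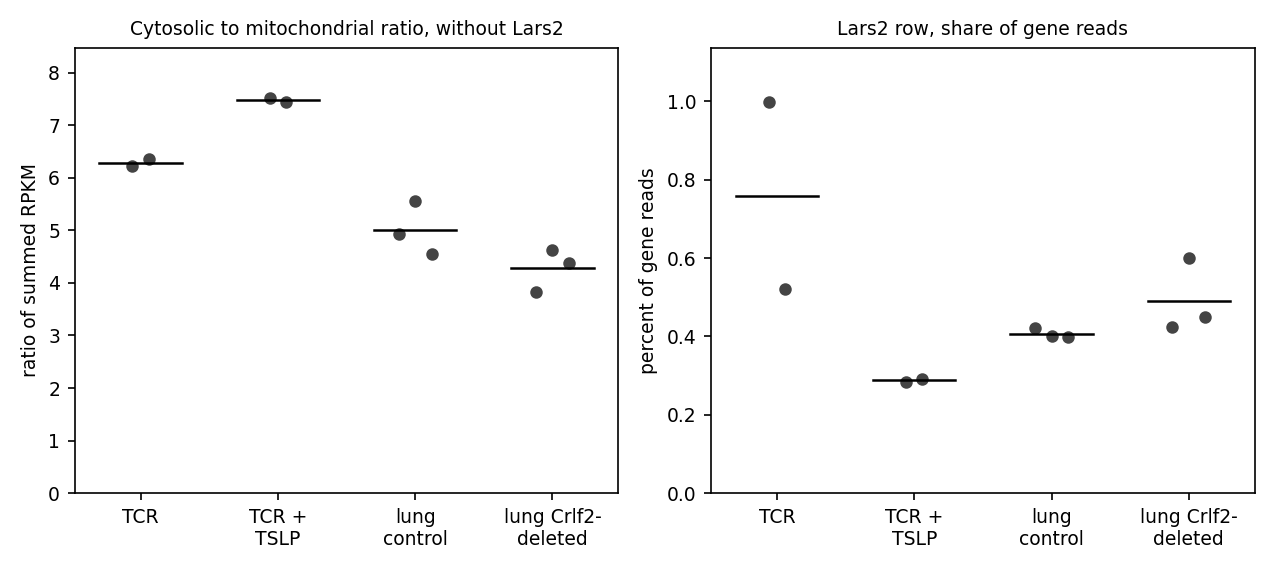
Left, summed RPKM of the cytosolic enzymes over that of the mitochondrial enzymes without Lars2, for each library (points) with the mean of each group (bars). Right, the share of gene reads in the Lars2 row; the TSLP libraries sit at 7.52 and 7.44 on the left and at 0.285% and 0.291% on the right, and the TCR libraries at 0.998% and 0.520% on the right lie far apart.

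The genes around the synthetases were taken by list, and the lists were chosen with earlier results of these data known. Each count from the main fit is read against 22.7% of all genes that rose and 23.1% that fell. A fit over all 4 groups called fewer of all genes, 541 of 14445 higher and 815 lower. Fits without a TCR + TSLP library also called fewer of all genes, and fits without a TCR library more. In the fit over all 4 groups the counts below were fewer. Of transporters 3 rose and 0 fell, and of ATF4 targets 4 rose and 1 fell. Among genes of amino acid sensing or of the scaffold 0 passed, and 1 other tRNA charging gene rose and 0 fell. In that fit 2 elongation factors fell and 0 rose, 1 mitochondrial translation factor rose and 1 fell, and 0 interferon-gamma response genes passed. Of the 12 genes listed as amino acid transporters 8 rose and 0 fell, with a median log2 fold change of 0.50, and 3 rose without TCR + TSLP library 2. Slc7a5, the light chain of the carrier of large neutral amino acids, went from 142 and 161 to 275 and 289 normalised reads (log2 0.90, adjusted p = 0.000353). Slc38a2, a carrier of small neutral amino acids, went from 92.9 and 91.7 to 150.1 and 159 (log2 0.74, adjusted p = 0.000481). Slc7a6, a carrier of cationic and neutral amino acids (log2 0.50), also rose. So did Slc43a3 (log2 0.63), which is on the list but is known as a carrier of purine nucleobases. Of the 27 ATF4 targets other than synthetases 16 rose and 3 fell (median 0.34). Without TCR + TSLP library 2 these counts were 9 and 1, without TCR + TSLP library 1 they were 11 and 1, and with a trend on transcript length removed they were 19 and 0. Sesn2, which restrains mTORC1 when leucine is scarce, rose from 10.2 and 9.58 to 27.96 and 30.6 normalised reads (log2 1.57, adjusted p = 0.000159). Atf3 (log2 0.98) and the tRNA exporter Xpot (log2 0.76) rose, and Ddit3, which encodes CHOP, fell from 59.8 and 53.5 to 32.3 and 27.7 (log2 -0.92, adjusted p = 0.000623), a call that was lost with the length trend removed. Atf4 mRNA stood at 343 and 435 without and 427 and 405 with TSLP, groups that overlapped (log2 0.10, interval -0.18 to 0.37). Atf4 passed as a rise with the length trend removed (log2 0.32) and without TCR library 2 (log2 0.30). ATF4 is controlled largely in translation, which these libraries do not measure.

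Among 10 genes of amino acid sensing and eIF2 control 5 rose and 1 fell (median 0.30). Without TCR + TSLP library 1 the rises numbered 3, without library 2 of that group 1, and without TCR library 2 the list had 8 that rose and 2 that fell. The eIF2 kinases Eif2ak3 (PERK, log2 0.86), Eif2ak4 (Gcn2, log2 0.57) and Eif2ak1 (HRI, log2 0.45) rose, and Eif2ak2 (PKR) fell by 0.44. Of 10 other genes of tRNA charging 5 rose and 3 fell (median 0.33), and without either TCR + TSLP library 3 rose and 3 fell. The 3 that fell were Aarsd1, an editing factor for mischarged alanyl-tRNA (log2 -0.99), Ptrh2, a peptidyl-tRNA hydrolase (-0.89), and Pstk, a kinase on the route to selenocysteinyl-tRNA (-0.85). Xpot, which is also on the ATF4 list, was among those that rose. Of the 5 cytosolic elongation factors 3 fell, all parts of the eEF1 exchange complex (Eef1d, log2 -1.12; Eef1b2, -0.82; Eef1g, -0.34), and Eef2 rose (0.32). Without either TCR + TSLP library the calls on Eef1g and Eef2 were lost. Of 13 mitochondrial translation factors 2 rose, the elongation factor Gfm1 (0.78) and the recycling factor Gfm2 (0.36). On the same list 2 fell, the initiation factor Mtif3 (-0.79) and the elongation factor Tufm (-0.36). Without TCR library 1 the list had 5 that fell. The calls on Gfm2 and Tufm were lost without either TCR + TSLP library. On log2(RPKM + 1) Eef1g and Tufm stood at 0.04 and 0.01. The median of all genes was again 0.20 there and 0.33 on log2(RPKM + 0.1).

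The second comparison asked what the loss of Crlf2 in Tregs changed in allergic lung. By edgeR's quasi-likelihood test 0 of the 34 synthetases passed, with 1.79% of the 12717 genes tested passing (98 higher and 129 lower, or 137 and 57 when scaled by library totals alone). At an unadjusted p below 0.05 there were 4 (Farsa, Hars, Vars and Wars), or fewer than the 15.9% of all genes. DESeq2 called 3 of them (Farsa, Vars and Wars) among 6.88% of all genes. A fit over all 4 groups called all 4 among 6.04%, and limma on log2(RPKM + 1) called Farsa and Hars among 6.73%. The median log2 fold change was -0.08 over the cytosolic enzymes and 0.19 over the mitochondrial ones (0.21 without Lars2), against -0.04 over all genes. Groups did not overlap in 3 synthetases that were higher (Farsa, Hars and Iars2) and 4 that were lower (Tars, Vars, Wars and Vars2), against 10.5% and 11.6% of all genes.

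Farsa came closest to the threshold. Control libraries gave 89.5, 85.5 and 65.5 normalised reads for it, and Crlf2-deleted libraries 122, 141 and 125. Every deleted library lay above every control library, with means of 80.2 ± 12.9 and 130 ± 10.2 (SD, n = 3 each). The log2 fold change was 0.70 with an SE of 0.16 (interval 0.33 to 1.06, edgeR, adjusted p = 0.0766). The lowest control value belonged to the third library, which held the erythroid and macrophage RNA, and without it the log2 fold change was 0.57 (adjusted p = 0.074). The partner subunit Farsb stood at 18.6, 22.6 and 37.8 in control and 30.0, 23.3 and 31.4 in Crlf2-deleted libraries, with the highest value in that same control library (log2 0.08, interval -0.59 to 0.76). The mitochondrial Fars2 had 40.9, 43.8 and 30.5 against 46.9, 38.0 and 45.0 (log2 0.19, interval -0.27 to 0.64).

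Hars, the histidyl enzyme, stood at 33.2, 41.7 and 40.7 normalised reads in control and 55.6, 51.0 and 59.6 in Crlf2-deleted libraries (log2 0.53, interval 0.14 to 0.92, adjusted p = 0.172, edgeR). Hars and Hars2 lie head to head, and 9.80% of the exon bases of Hars overlap Hars2 on the opposite strand. Hars2 stood at 23.5, 8.89 and 22.5 in control and 22.8, 24.2 and 21.4 in Crlf2-deleted libraries, and its low value came from 13 reads in the shallowest library. Vars, the valyl enzyme, had 239, 230 and 206 in control and 173, 163 and 172 in Crlf2-deleted libraries (log2 -0.40, interval -0.67 to -0.14, adjusted p = 0.137, edgeR). The value of Vars was 0.02 both on log2(RPKM + 1) and on log2(RPKM + 0.1), where the median of all genes lay at 0.21 and 0.37. Vars2, at 14.0, 19.2 and 11.4 against 8.38, 9.37 and 10.0, was also the lower in every deleted library, with 28 to 192 reads per library (log2 -0.65, interval -1.40 to 0.09).

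Wars stood at 191, 169 and 116 normalised reads in control and at 95.3, 97.6 and 104 in Crlf2-deleted libraries. The deleted libraries were tight and all below the control ones, which were spread (159 ± 38.2 against 99.0 ± 4.56, n = 3 each). Its log2 fold change was -0.68 with an SE of 0.19 (interval -1.11 to -0.25, edgeR, adjusted p = 0.124). The third control library, the one that stood apart, had the lowest control value. Without it the log2 fold change was -0.86 and passed (adjusted p = 0.0123, edgeR), the only synthetase called when any 1 lung library was left out. Over its other alternatives the adjusted p of Wars ran from 0.0254 (DESeq2) to 0.442 (limma on log2(RPKM + 1)). Wars2, with 10 to 182 reads per library, was at 5.22, 6.84 and 10.2 against 8.18, 8.65 and 9.50 (log2 0.23, interval -0.66 to 1.12). The tryptophanyl pair had the widest difference between its forms in lung (-0.91).

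Because Wars responds to interferon-gamma, 8 other such genes were set beside it. Of these, 7 fell in the Crlf2-deleted libraries and 0 rose, against 1.01% of all genes that fell, with a median log2 fold change of -1.36. The list was chosen with earlier results of these data known, so the count is a description of these genes and no independent support. The count was 8 without the third control library, 3 without the first and 2 without the second, and 0 without the first or the third Crlf2-deleted library. Of all genes, 280 were lower without the third control library, 17 without the first and 10 without the second. Without the first Crlf2-deleted library 2 of all genes were lower, and without the third 4. With any library left out, the median log2 fold change of the list lay between -1.55 and -1.19. Gbp2, a guanylate-binding protein, went from 304, 296 and 165 to 42.2, 42.4 and 40.2 normalised reads (log2 -2.61, adjusted p = 0.00506). Igtp, an immunity-related GTPase, went from 565, 625 and 363 to 177, 227 and 145 (log2 -1.50, adjusted p = 0.0264). Cxcl10 (log2 -3.35) and Iigp1 (-3.18) fell further. In each of these 4 genes the third control library was again the lowest of its group, as in Wars. With TSLP in spleen cultures 3 of the 8 rose and 1 fell, and 0 rose without either TCR + TSLP library and 5 without TCR library 2. The 1 that fell was Psmb9, a subunit of the immunoproteasome (log2 -0.53), and its value turned to 0.25 with the length trend removed. With length and GC trends removed Psmb9 passed as a rise (log2 0.37, adjusted p = 0.025, edgeR). There Wars stood at 166 and 155 without and 143 and 146 with TSLP (log2 -0.15, interval -0.35 to 0.05, adjusted p = 0.183). Markers of macrophages and monocytes, cells that also respond to interferon-gamma, summed to 229, 332 and 3542 CPM in control and 909 to 920 in Crlf2-deleted libraries, and their part in the result was not tested.

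**Figure D5:**
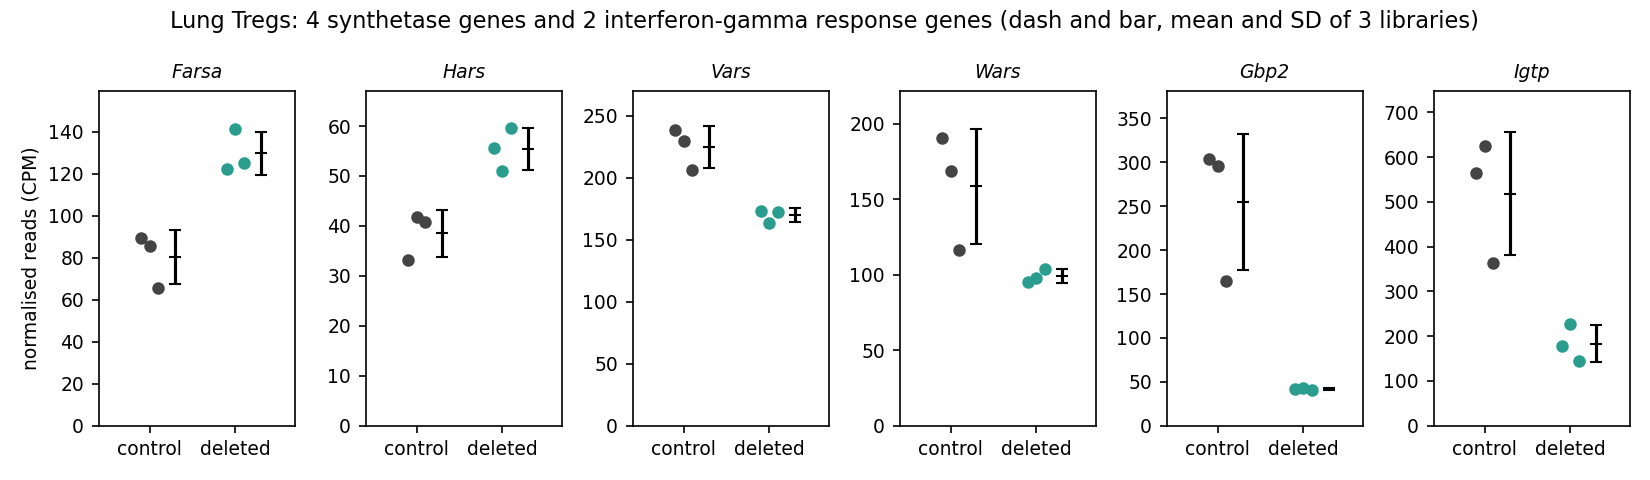
Normalised reads (CPM) in each lung library (points) for Farsa, Hars, Vars and Wars and for the interferon-gamma response genes Gbp2 and Igtp, with the mean and SD of the 3 libraries of each group beside them. Control and Crlf2-deleted libraries do not overlap in any of the 6 panels, and the deleted libraries of Wars and Gbp2 lie close together (95.3 to 104 and 40.2 to 42.4).

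The remaining synthetases in lung ranged from a log2 fold change of -0.36 (Yars2) to 0.72 (Ears2), and intervals were wide for the rarer mitochondrial enzymes. Ears2, with 5 to 271 reads per library, had an interval from -0.47 to 1.92. For the cytosolic genes that rose most with TSLP (Iars, Nars and Dars) the lung values lay near 0. Iars stood at 44.1, 50.6 and 40.3 in control and 45.8, 42.5 and 43.9 in Crlf2-deleted libraries (log2 -0.02, interval -0.40 to 0.35). Dars was at 0.07 (interval -0.28 to 0.41) and Nars at -0.13 (interval -0.45 to 0.18). Of the mitochondrial genes that rose with TSLP, Nars2 was at -0.04 in lung (interval -0.83 to 0.75). Iars2 was at 0.24 (interval -0.21 to 0.69), with every Crlf2-deleted library above every control library. The Lars2 row stood at 4347 ± 347 normalised reads in control and 4617 ± 837 in Crlf2-deleted libraries (log2 0.09, interval -0.23 to 0.40). By amino acid the cytosolic form had the higher fold change in 5 of 13 pairs (median difference -0.09). Of the other lists, 1 gene passed, the ATF4 target Ddit4, an inhibitor of mTORC1. It rose from 68.6, 80.7 and 64.2 to 160.5, 111 and 133 normalised reads (log2 0.93, adjusted p = 0.0446, 1 of 23 ATF4 targets tested, against 0.771% of all genes that rose). That call was lost when any library other than the third control one was left out, in fits that called 2 to 43 of all genes higher. The call on Ddit4 was also lost without robust moderation, with length and GC trends removed and with summed transcripts. In those fits 63, 101 and 61 of all genes were higher. The transporters, scaffold genes, sensing kinases, elongation factors, mitochondrial translation factors and other tRNA charging genes had 0 calls each by edgeR. An unadjusted p below 0.05 was found for 3 of 10 genes of amino acid sensing, 2 of 12 transporters and 2 of 5 elongation factors. It was also found for 6 of 23 ATF4 targets and for 0 genes of the 3 other lists, against 15.9% of all genes. The eIF2 kinase Eif2ak2 (PKR), itself induced by interferon, had 63.8, 74.6 and 47.6 normalised reads in control and 28.3, 32.6 and 21.4 in Crlf2-deleted libraries, with no overlap (log2 -1.16, adjusted p = 0.0525, edgeR). It passed as a fall without the third control library, with no filter, with the replicate block, with the length trend removed, with all 4 groups and with DESeq2.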

How the data were processed

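For the stimulated spleen Tregs, the labels' protocols give a stranded kit for total RNA with removal of ribosomal RNA, an input of 100 to 500 ng and single reads of 50 bp; the kit for lung is not given separately. Each library's deposited file lists raw counts, in whole reads, and RPKM for 31682 RefSeq transcripts, per the file headers. The deposited RPKM values were scaled by the authors to a total larger than the reads listed, by a factor that differs between libraries. Tools in the submitters' processing notes are TopHat2 2.2.1, Bowtie2 2.2.6, bedtools 2.25.0, SAMtools 0.1.8 and edgeR, with build mm10. The sources used here do not give the counting tool, its strand rule or its treatment of multimapping reads.

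Where a symbol had several transcripts (4343 symbols), the one with most reads on average was used. Counts were tested two-sided with edgeR 4.0.16 in R 4.3.3 (TMM, filterByExpr with a minimum count of 10, robust quasi-likelihood) within each comparison, adjusted by Benjamini-Hochberg over all genes, threshold 0.05. Intervals are 95%. Alternatives were other scalings, filters and moderation, DESeq2 1.42.0, limma 3.58.1 on log2(RPKM + 1) and log2(RPKM + 0.1), summed transcripts, a replicate block, removal of loess trends (span 0.3) on length and GC, all 4 groups in 1 fit, and leaving out each library; the crossed pairing and the ratio without Lars2 were added after seeing the data. The rule for named genes took every synthetase, Crlf2 and up to 4 genes per list and comparison by p; Atf4 and the genes that overlap a synthetase were named after their values were seen. Members and lists were chosen with earlier results of these data known, and enzyme classes were assigned after the values were seen. Replicates differed by more than sampling noise (chi-square per degree of freedom 5.80 to 161). The symbols Gatb, Sars1, Trac, Jchain, Adgre1 and Siglecf of the lists were not matched in the files used here.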

Additional observations from a re-analysis of the deposited data

How the results depend on the processing

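Depth in lung was uneven, and the shallowest library held 1439675 reads on genes. The samples of a pair share only a number: same-number deviations correlated at -0.12 in spleen and at 0.08, -0.15 and -0.04 in lung. With the replicate number as a block, 8 synthetases rose and 5 fell with TSLP (losing Aars and Sars2, and Aimp2 of the named list genes) and 0 passed in lung (losing Ddit4), where 32 genes were higher and 89 lower. With crossed numbers in spleen, 10 synthetases rose and 8 fell, and 3569 genes were higher and 3538 lower. In what follows the cause was not tested.

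With TSLP, the 7 cytosolic enzymes that rose became 12 with library totals alone, 4 with all 4 groups in 1 fit, 11 on log2(RPKM + 1) and 12 on log2(RPKM + 0.1), and 3 to 10 with a library left out. The 0 that fell became 1 with crossed numbers, 3 with the length trend removed, 1 with length and GC trends removed, 1 with these and the block, and 0 to 3 with a library left out. The 2 mitochondrial enzymes that rose became 5 with library totals, 4 with the length trend removed, 1 with all 4 groups, 5 on either RPKM scale, and 1 to 4 with a library left out. The 6 that fell became 3 with library totals, 3 with length and GC removed, 2 with the block added, 1 with all 4 groups, 1 on either RPKM scale, and 2 to 7 with a library left out. The cytosolic median minus that of all genes was 0.09 and became 0.026 with the block and both trends removed, 0.26 on log2(RPKM + 1), and 0.027 to 0.17 with a library left out. The mitochondrial one was -0.09 and became -0.016 with no filter, -0.24 with the length trend removed, -0.17 with both trends removed with or without the block, -0.061 with all 4 groups, -0.063 on log2(RPKM + 1), -0.059 on log2(RPKM + 0.1), and -0.23 to -0.13 with a library left out. All genes split 541 higher and 815 lower with all 4 groups in 1 fit, 3514 and 2122 with the length trend removed, 3353 and 1991 with both removed, 5681 and 1249 on log2(RPKM + 1), 5606 and 1366 on log2(RPKM + 0.1), 1728 and 2033 without TCR + TSLP library 1, and 1435 and 1777 without library 2 of that group.

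Signs turned in these cases. Sars2 was 0.081 with both trends removed, 0.082 with the block added, 0.053 on log2(RPKM + 1) and 0.059 on log2(RPKM + 0.1), and Tars2 was 0.056 and 0.059 on these scales. Aimp1 was 0.12 with the length trend removed and 0.069 with both, or 0.071 with the block added. Aimp2 was 0.21, 0.29 and 0.29 in those settings and 0.10 on both RPKM scales. Tufm was 0.013 and 0.014 and Eef1g 0.036 and 0.036 on the RPKM scales. Psmb9 was 0.25 with the length trend removed, 0.37 with both and 0.37 with the block added. Crlf2 in spleen fell with TSLP in the main fit (log2 -0.43, adjusted p = 0.00799, edgeR). It was 0.29 with both trends removed, with or without the block. With both trends removed, with or without the block, Aimp2, Psmb9 and Crlf2 passed as rises.

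In lung, the 0 cytosolic enzymes that rose became 2 with all 4 groups, 1 with DESeq2 and 2 on either RPKM scale; the 0 that fell became 2, 2 and 0 to 1 with a library left out. The cytosolic median minus that of all genes was -0.03 and became 0.058 on log2(RPKM + 1), and the mitochondrial one was 0.23 and became 0.14 with the block and both trends removed and 0.12 on log2(RPKM + 1). In all, 98 genes were higher and 129 lower, against 2 and 2 without Crlf2-deleted library 1, 3 and 4 without library 3 of that group, 12 and 10 without control library 2, 16 and 17 without control library 1, 43 and 81 without Crlf2-deleted library 2, and 252 and 280 without control library 3. These counts were 379 and 494 with all 4 groups, 368 and 499 with DESeq2, 762 and 94 on log2(RPKM + 1), where the median of all genes lay at 0.21, 719 and 85 on log2(RPKM + 0.1), 24 and 60 with the block and both trends removed, 137 and 57 with library totals, 63 and 93 without robust moderation, and 61 and 73 with summed transcripts.

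The cytosolic to mitochondrial ratio turned on Lars2. In TCR, TCR + TSLP, control lung and Crlf2-deleted lung it was 0.606, 1.61, 0.492 and 0.440. Without Kars and Lars2, the largest of each set, it was 5.54, 6.75, 4.48 and 3.90. As a ratio of medians it was 5.16, 8.44, 3.88 and 3.66, and without Lars2 alone 6.29, 7.48, 5.01 and 4.28. Without Gars and Kars it was 1.30 in TCR + TSLP, 0.404 in control lung and 0.367 in Crlf2-deleted lung.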
